A study of Homo sapiens with 6 samples.

Results

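Stable Ago2 transfectants of H1299 cells were examined against the control line made for them, on 3 of the 6 arrays of the series. The arrays were picked out by their titles: Ago2 clone 1, Ago2 clone 2 and the control for Ago2. Earlier results of these data were known when this part was chosen. H1299 is an established cell line from a human non-small cell lung cancer, which the labels call lung adenocarcinoma. Both Ago2 clones are H1299 lines grown out after stable transfection with Ago2, and the control is an H1299 line with 1 array, so each clone and the control rest on 1 hybridization. The sources used here do not give the vector, the promoter, the tag or what the control line carries. The other 3 arrays, of 2 Lin-28B clones and their own control, entered the normalization and the estimate of the spread. RNA came from cells in exponential growth and was hybridized to Illumina human HT-12 BeadChips, where each bead-bound probe reports the brightness of the labelled cRNA it captures.

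AGO2 is the Argonaute protein that holds a microRNA and guides it to complementary stretches in mRNAs. Bound mRNAs are cleaved when pairing is extensive, and otherwise they are repressed and shortened at the poly(A) tail through partner proteins of the GW182 family. Argonaute protein also stabilises the microRNAs it carries, and its amount can limit silencing in cells. An array of mRNA levels reads the sum of these direct effects, of their downstream consequences and of differences between the lines that existed apart from the transgene.

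The deposited table lists probes by Illumina identifier and no gene names. No source used here paired these identifiers with genes, so no probe was matched to a gene. AGO2 itself, which could have checked the labels, and the lung, epithelial and other cell type markers were therefore not analysed here. Results are given for probes. The 3 Ago2-series arrays held 48803 probes each, with median intensities of 67.04 on the control, 61.7 on clone 1 and 63.4 on clone 2. The lowest intensities were 43.4, 34.8 and 37.7 in the same order, so a background level remained in the values. Signals near the median cannot be told from that background. Of all probes, 28035 were kept because they lay above the median of their array on at least 2 of the 6 arrays. Differences are on the log2(intensity + 32) scale after quantile normalization of all 6 arrays, on which 1 unit is 2-fold, and intensities are as deposited.

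The main comparison asked which transcripts differed in level between both Ago2 clones and the control made for them. None passed the test: limma with Benjamini-Hochberg adjustment called 0 of 28035 kept probes (0%) at an adjusted p of 0.05, with 0.0999 as the smallest adjusted p. An unadjusted p of 0.05 was passed by 4239 probes (15.1%), 1941 of them higher and 2298 lower in the clones. With moderation towards a trend of variance with intensity the call changed: limma then called 161 probes, 64 higher and 97 lower, with a median size of 1.52 on the log2 scale. Of these 161, with kept probes split into 3 groups of equal size by mean signal, 101 lay in the brightest group, 59 in the middle group and 1 in the dimmest. Robust moderation called 0. A fit that omitted clone 2 of Ago2 called 51 probes, and a fit that omitted clone 1 called 0. The spread in the fit of all 6 arrays came from both pairs of clones, and the control was assumed to vary like them. Where an Ago2 clone was omitted, it came from the Lin-28B pair alone, which lay closer together than the Ago2 pair, and the lone Ago2 clone was assumed to vary like that pair. The labels record no separate cultures or hybridizations of a line, so a p-value here reflects spread between clones of a pair, with 1 array per clone. Differences between clones and between hybridizations cannot be told apart in that spread. The spread of a control line was not measured.

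The 95% interval of the fitted log2 change reached 0.334 to either side for the median probe, 0.266 at the 10th percentile and 0.655 at the 90th. The standard error grew with brightness, from a median of 0.110 in the dimmest group of kept probes to 0.125 in the middle group and 0.178 in the brightest.

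By size, with no test, 347 of the kept probes (1.24%) lay 2-fold or more away from the control, on the same side, in both Ago2 clones. Of these, 179 (0.638% of kept probes) were higher and 168 (0.599%) lower. Taken singly, clone 1 was at least 2-fold from the control for 919 probes, 546 higher and 373 lower, and clone 2 for 713 probes, 422 higher and 291 lower. Both counts are taken from the same control array. Clone 1 was past 2-fold and clone 2 was short of it for 570 probes, and the reverse held for 364. The other clone differed in the same direction for 535 of the 570 and 334 of the 364, which the shared control favours. The clones were at least 2-fold apart for 155 and 71 of them. At 1.5-fold in both clones there were 802 higher and 792 lower probes, at 3-fold 27 and 31, and at 4-fold 7 and 12. When the only scaling was a shift to 1 common median, 65.2% of 388 probes at least 2-fold from the control were higher, where quantile normalization gave 51.6% of 347. Cyclic loess gave 53.1% of 371 and no normalization 55.2% of 377. Adding 100 in place of 32 before the logarithm left 218 probes, and adding nothing gave 482.

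**Figure D1:**
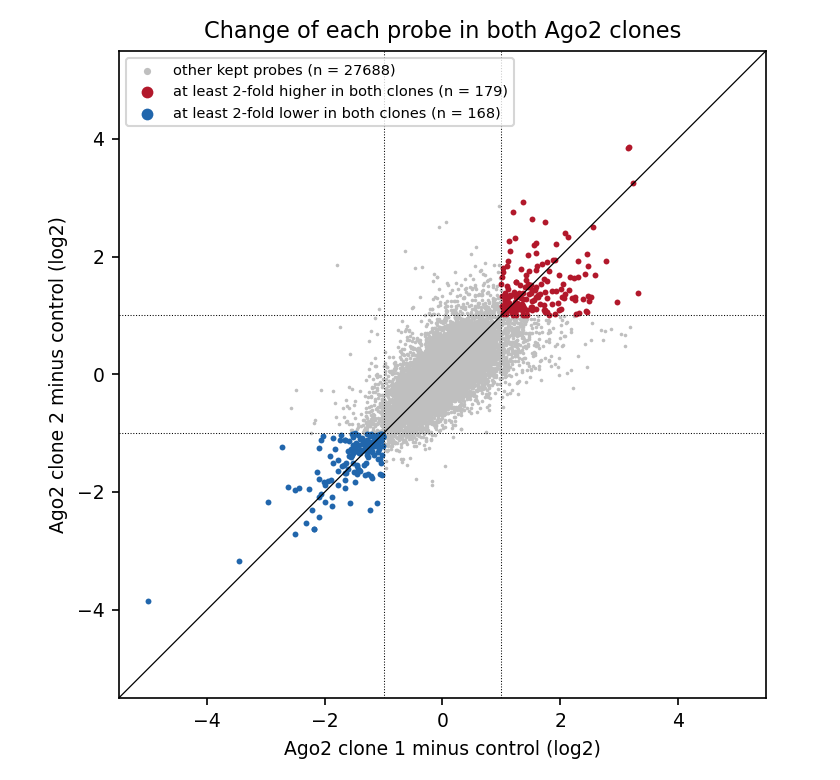
Log2 difference from the Ago2 control for every kept probe, with clone 1 on the horizontal and clone 2 on the vertical axis; each point is 1 probe, dotted lines mark 2-fold and the diagonal marks equal values. The 179 red and 168 blue probes are past 2-fold in both clones, and both axes share the 1 control array, so the axes are not independent.

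Among the 347 probes, the median size of the difference was 1.41 on the log2 scale in clone 1 and 1.30 in clone 2, values that the selection and the shared control favour being alike. For 282 of them the clones were within 1.5-fold of each other, and for 20 they were at least 2-fold apart. The 179 higher probes had a median intensity of 196 in the control and 695 in the mean of the clones. The 168 lower probes had a median of 1037 in the control and 361 in the clones. Some had a dim lower end: 51 of the 179 higher probes in the control, and 27 of the 168 lower probes in the clones. Dim here is under 134, which is 2 times the median of the control array. Such levels were common among kept probes, whose dimmest and middle groups by mean signal had median intensities of 64.0 and 91.7. Differences with a dim end are compressed by the background and depend on the offset. Both ends lay above an intensity of 500 for 43 higher probes and 68 lower probes, where the offset matters little.

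None of the 4 probes with the largest differences present in both clones passed the adjusted threshold. ILMN_1792455 measured 1597 in the control, 15358 in clone 1 and 14930 in clone 2. Both clones lay far above the control and were nearly equal. The fitted difference was 3.25 ± 0.18 on the log2 scale (SE), or 9.50-fold, with a 95% interval from 2.78 to 3.71 and an adjusted p of 0.0999 in limma. The Lin-28B control read 10030 for this probe and the Lin-28B clones 3543 and 4359, so the Ago2 control was the lowest of the 6 arrays.

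ILMN_1660436 measured 321 in the control, 3235 in clone 1 and 5237 in clone 2. The clones again did not overlap the control, with clone 2 the higher of the pair. The fitted difference was 3.52 ± 0.31 (log2, SE), or 11.4-fold, with a 95% interval from 2.69 to 4.34 and an adjusted p of 0.102 in limma. On the other 3 arrays it lay between 1913 in the Lin-28B control and 2647 in Lin-28B clone 1, below both Ago2 clones and above the Ago2 control.

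ILMN_1660067 measured 3122 in the control, 60.3 in clone 1 and 182 in clone 2. Clone 1 was at the level of its array median, so its distance from the control is set by the background and the offset. The fitted difference was -4.43 ± 0.55 (log2, SE, adjusted p = 0.106 in limma), and -3.87 and -4.83 with an offset of 100 and with none. On the Lin-28B arrays the probe read 119 in the control, 199 in clone 1 and 114 in clone 2, and the Ago2 control was far above the other 5 arrays.

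ILMN_1658448 measured 1032 in the control, 60.2 in clone 1 and 84.0 in clone 2. Both clones were close to their array medians. The fitted difference was -3.32 ± 0.21 (log2, SE, adjusted p = 0.0999 in limma), and -2.69 and -3.81 with an offset of 100 and with none. The other 3 arrays also read low, at 57.0 in the Lin-28B control, 107 in Lin-28B clone 1 and 76.1 in Lin-28B clone 2. With the intensity trend in the moderation the adjusted p-values of these 4 probes, in the order given, were 0.000697, 0.00591, 0.00723 and 0.000697 in limma, and without Ago2 clone 2, with the spread of the Lin-28B pair alone, it was 0.0490 for each. Against the Lin-28B control the differences were 0.48, 0.91, -0.069 and 0.24 in this order.

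**Figure D2:**
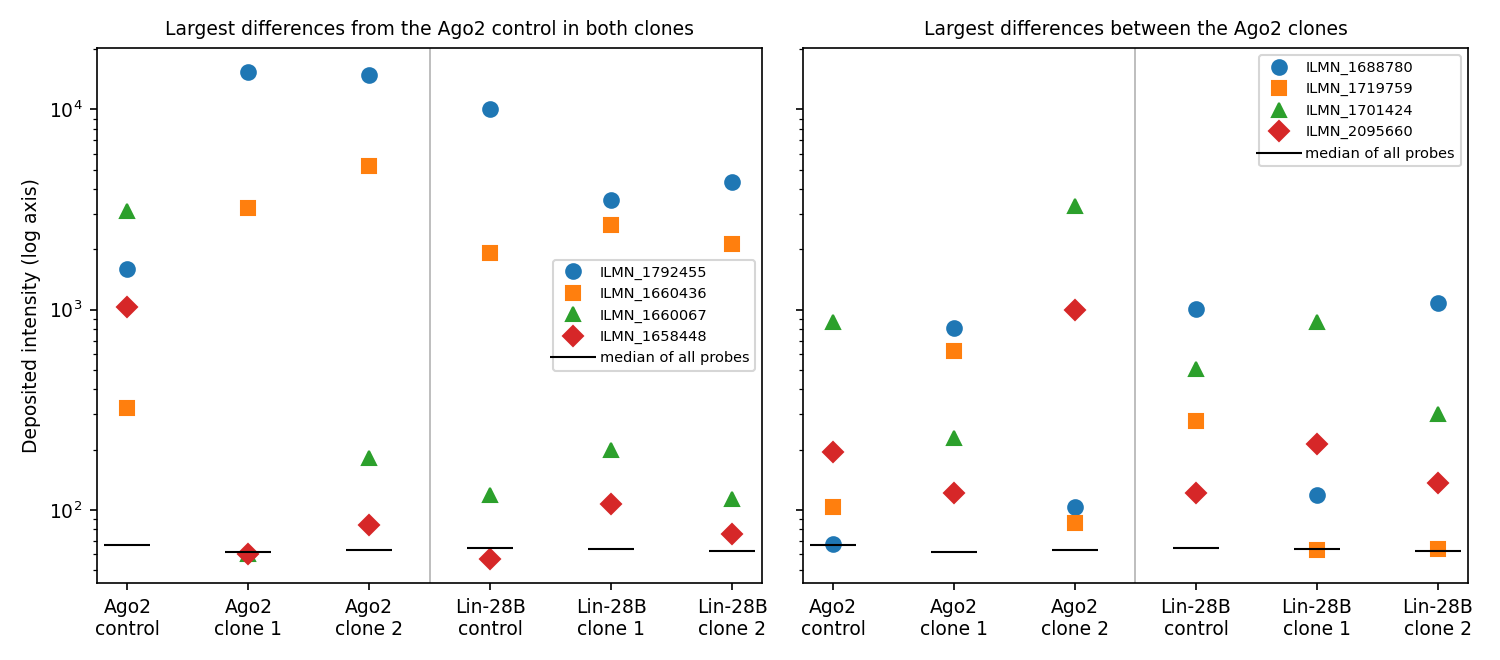
Deposited intensity on a log axis for each of the 6 arrays, with 4 probes chosen for the largest differences present in both Ago2 clones (left) and 4 chosen for the largest differences between the Ago2 clones (right); each symbol is 1 probe on 1 array and black dashes give the median of all probes. In the left panel the Ago2 control lies beyond the other 5 arrays for each of the 4 probes, and in the right panel the Ago2 clones differ from each other.

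For these probes the Ago2 control also lay apart from the 3 arrays of the Lin-28B lines. Over the 347 probes, distances from the Ago2 control, signed along the change of the Ago2 clones, had a median of 0.97 in Lin-28B clone 1, 1.14 in Lin-28B clone 2 and 1.57 in the Lin-28B control. The Ago2 clones themselves had medians of 1.41 and 1.30, which the selection fixed at 1 or more. The 3 arrays without Ago2 transfection were thus also displaced from the Ago2 control, and at least 2-fold in the same direction for 166, 220 and 289 of the 347 probes. All these distances share the Ago2 control array, and the probes were chosen because that array differed. Shares over all kept probes are not given for these counts. Measured from the Lin-28B control, the mean of the Ago2 clones kept the sign for 133 of the 347 probes, with a median signed difference of -0.13 on the log2 scale. That count uses the same Ago2 clones that chose the probes. From the Lin-28B control, both Ago2 clones were at least 2-fold away on the same side for 388 of the 28035 kept probes. Of the 347 probes, 6 (1.73%) were at least 2-fold from both controls in the same direction in both Ago2 clones. Another 18 were at least 2-fold from both controls in opposite directions, above 1 control and below the other. A line effect, an array effect and an effect of Ago2 cannot be told apart with 1 control array.

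**Figure D3:**
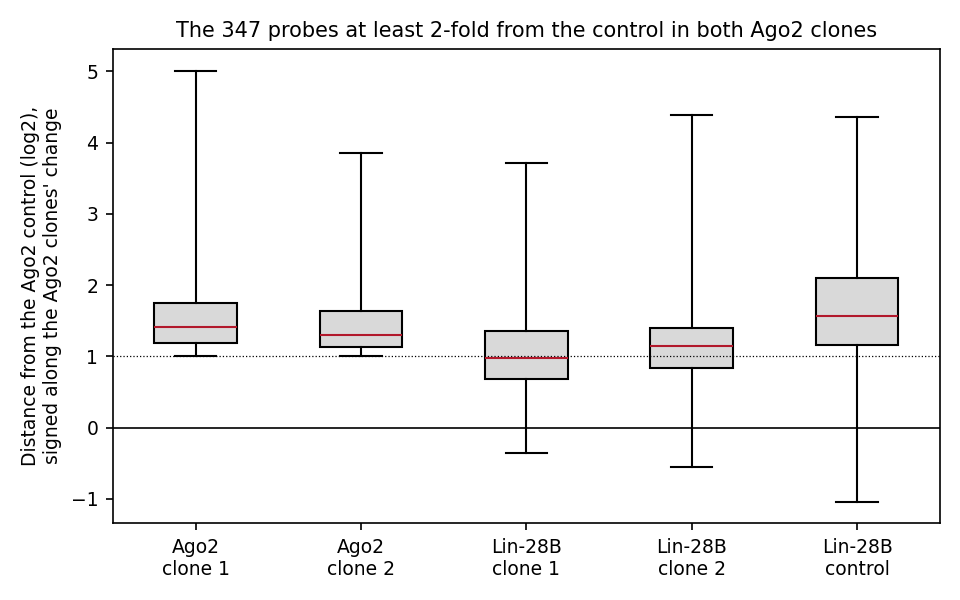
Log2 distance of 5 arrays from the Ago2 control over the 347 probes at least 2-fold from it in both Ago2 clones, signed so that positive values go the way of the Ago2 clones; boxes give quartiles, red lines medians, whiskers the full range, and the dotted line marks 2-fold. The 3 Lin-28B arrays have medians from 0.97 to 1.57, near those of the Ago2 clones at 1.41 and 1.30.

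Compared with all 4 other arrays at once, the Ago2 clones rarely stood apart by much. Both clones lay above all 4 others for 1500 kept probes (5.35%) and below them for 1577 (5.63%). Any 2 of the 6 arrays lie beyond the other 4 for some probes by order alone. These shares by themselves therefore do not set the Ago2 clones apart. The gap to the nearest of the 4 was at most 0.79 above and 0.73 below on the log2 scale. It therefore reached 2-fold for 0 probes.

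The difference between the Ago2 effect and the Lin-28B effect, each against its own control, was tested as an interaction in the same fit. It passed for 1067 probes (3.81%) in limma with Benjamini-Hochberg adjustment, with the Ago2 effect the higher for 508 and the lower for 559. Each such value is the direct difference between the Ago2 and Lin-28B clones plus the gap between 2 single control arrays. The count was 0 when both effects were taken from the Lin-28B control, which leaves the direct difference between the clones. With an offset of 100 the count was also 0. It was 0 without either Lin-28B clone, 2499 without Ago2 clone 1 and 2887 without Ago2 clone 2. Of the 4 probes above, ILMN_1792455 differed by 4.75 ± 0.25 (log2, SE, adjusted p = 0.0405 in limma), ILMN_1660436 by 3.44 ± 0.44 (adjusted p = 0.0443) and ILMN_1658448 by -3.80 ± 0.30 (adjusted p = 0.0405). These probes were chosen for a large Ago2 change, which is 1 part of the tested difference. For ILMN_1660067 the difference of -4.75 ± 0.78 had an adjusted p of 0.0547 in limma.

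Among probes past the threshold, ILMN_1663640 had the highest difference of effects. It measured 65.9 in the Ago2 control, 305 in clone 1 and 294 in clone 2, a log2 change of 1.78 ± 0.10 (SE, adjusted p = 0.0999 in limma). The clones were alike. The Ago2 control was at background level, so the size moved with the offset, to 1.27 with 100 and 2.23 with none. On the other arrays this probe read 939 in the Lin-28B control and 66.6 and 61.7 in the Lin-28B clones, which were also at background level. The Lin-28B change of -3.45 was larger in size than the Ago2 change, and both have an end at background. ILMN_1720373 and ILMN_2383305 had the lowest differences among probes past the threshold. ILMN_1720373 measured 11999 in the Ago2 control, 2125 in clone 1 and 3111 in clone 2, and ILMN_2383305 measured 3094, 963 and 1154 in the same order. Both clones lay below the control for both probes, by -2.18 ± 0.23 (log2, SE, adjusted p = 0.102 in limma) and by -1.48 ± 0.32 (adjusted p = 0.159). Against the Lin-28B control all 3 probes took the opposite sign, at -1.71, 1.41 and 1.92 in the order given here.

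The Ago2 clones also differed from each other. They were at least 2-fold apart for 336 of the kept probes (1.20%), 178 higher in clone 1 and 158 higher in clone 2, where the Lin-28B clones were for 65. The median size among the 336 was 1.22 on the log2 scale, and 23 probes were at least 4-fold apart. The control lay nearer to clone 2 for 217 of the 336 and nearer to clone 1 for 119, and it lay between the clones for 155. Each clone was the extreme of all 6 arrays about equally often, clone 1 for 168 of these probes and clone 2 for 166. Choosing probes where the clones were apart favours a clone as the extreme. Over all kept probes clone 1 was the extreme array for 26.9% and clone 2 for 28.4%. The shares were 44.7% for the Ago2 control, 52.4% for the Lin-28B control and 26.0% and 21.5% for Lin-28B clones 1 and 2. Each control is the only array of its group and each clone has a partner, so the shares of controls and clones are not alike by design. With 1 array for each clone, a difference between the clones cannot be told apart from a difference between the hybridizations.

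For ILMN_1688780 clone 1 measured 806, clone 2 measured 104 and the control 67.8. Clone 1 was higher than clone 2 by 2.62 on the log2 scale, and the control was at background level. Clone 2 was itself dim, so this size moved to 2.15 with an offset of 100 and 2.96 with none. On the other arrays this probe was as uneven, with 1007 in the Lin-28B control, 119 in Lin-28B clone 1 and 1085 in Lin-28B clone 2. ILMN_1719759 measured 620 in clone 1, 85.6 in clone 2 and 103 in the control, and clone 1 was the highest of the 6 arrays. Clone 2 was dim here as well, and the difference between the clones of 2.45 (log2) moved to 1.94 with an offset of 100 and 2.84 with none. It read 277 in the Lin-28B control and 62.8 and 63.7 in the Lin-28B clones.

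In the other direction, ILMN_1701424 measured 229 in clone 1, 3281 in clone 2 and 873 in the control. Clone 2 was 12.5-fold above clone 1, and the control lay between them. ILMN_1701424 and ILMN_1800512 were the 2 probes at least 2-fold below the control in clone 1 and at least 2-fold above it in clone 2, with ILMN_1800512 at -1.07 and 1.11 on the log2 scale. With an offset of 100 the clones were -1.85 apart for ILMN_1800512 (clone 1 minus clone 2), too little for 2-fold on both sides of the control. ILMN_2095660 measured 122 in clone 1, 1001 in clone 2 and 194 in the control, and clone 2 was the highest of the 6 arrays. Clone 1 was dim, and the difference of -2.74 (log2, clone 1 minus clone 2) moved to -2.30 with an offset of 100 and -3.04 with none.

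Spread and 2-fold differences were larger among bright probes. Signal was averaged over all 6 arrays, so a probe bright on some of them counts as brighter. Across probes, the log2 difference between clone and control had an SD of 0.124 for clone 1 and 0.123 for clone 2 in the dimmest group of kept probes, where the difference between the clones had an SD of 0.116. In the middle group these values were 0.338, 0.317 and 0.258. In the brightest group they were 0.593, 0.544 and 0.427. The clones were thus farther from the control than from each other in every group, by a margin that was smallest in the dimmest. Of the 347 probes at least 2-fold from the control in both clones, 303 (87.3%) lay in the brightest group, 44 in the middle group and 0 in the dimmest, where the median intensity was 64.0. The 0 was close to fixed by the construction, since the offset compresses ratios of dim probes and a probe well above background on some arrays leaves that group. Of the 336 probes that set the clones apart, 264 lay in the brightest group and 72 in the middle group.

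**Figure D4:**
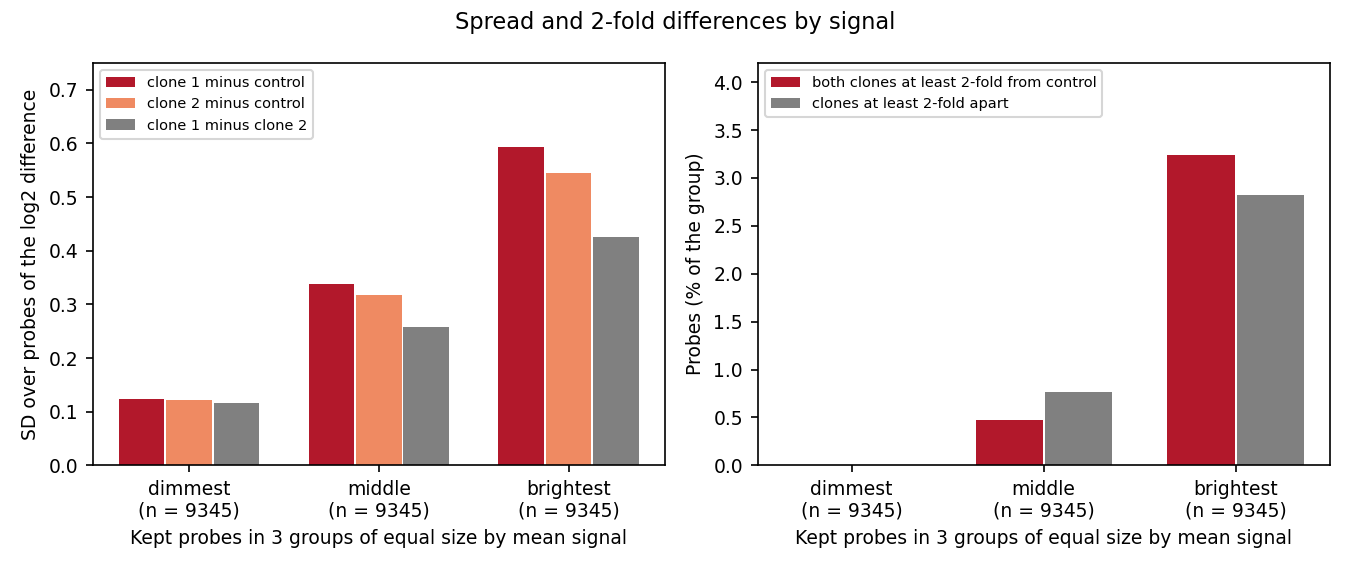
Left, spread (SD) across probes of log2 differences between 2 arrays, and right, percentage of probes at least 2-fold from the control in both clones (red) or 2-fold apart between the clones (grey), in 3 groups of 9345 kept probes by mean signal. The SD of the difference between the clones rises from 0.116 to 0.427, and 3.24% of the brightest group are at least 2-fold from the control in both clones, against 0.471% of the middle group.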

How the data were processed

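The deposited table holds linear intensities of 48803 probes on 6 arrays. The sources used here do not give the scanner software, the background handling, the normalization or detection calls. Per the labels' protocols, RNA was isolated in Trizol and biotin-labelled cRNA was made with the MessageAmp kit. Groups and clone numbers came from the sample titles.

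The deposited intensities were given a floor of 1 and an offset of 32, put on the log2 scale and quantile normalized over all 6 arrays. Kept probes lay above the array median on at least 2 of 6 arrays. One model with 4 groups was fitted to the 6 arrays in limma 3.58.1 (R 4.3.3), with 2 residual degrees of freedom and 2.54 prior degrees of freedom, and p-values were adjusted by Benjamini-Hochberg over all 28035 kept probes (57.4%). Arrays have no read depth, so their number limits the precision. An exact permutation test was not run, since with 3 arrangements it cannot give a p under 0.333.

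The arrays, the rules and 35 gene lists were chosen with earlier results of these data known. Naming rules that asked for genes were applied to probes: the 2 each way with the largest value of the smaller of both clones' differences from the control, among probes at least 2-fold apart in both, the 2 each way with the largest difference between the clones, and the 2 each way with the largest difference of effects past the threshold. ILMN_1800512 was named after its values were seen. The gene lists and the averaging of a gene's probes were not analysed here, because no probe was matched to a gene. No sequence is shown for the same reason. Alternatives covered the offset, normalization, filter, control, moderation, omitted clones and the clone number as a block.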

Additional observations from a re-analysis of the deposited data

Results flagged for a closer look

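Under the main settings, 6 of the probes named passed the interaction test in limma. It compares the Ago2 effect with the Lin-28B effect, each against its own single control array. No probe passed it with an offset of 100, with the filter that required all 3 Ago2 arrays above their medians, or with the replicate block. The difference, Ago2 minus Lin-28B on the log2 scale, was 5.23 for ILMN_1663640, 4.75 for ILMN_1792455, 3.44 for ILMN_1660436, -3.80 for ILMN_1658448, -4.41 for ILMN_1720373 and -4.20 for ILMN_2383305. All 6 were named by values that enter this difference: ILMN_1663640, ILMN_1720373 and ILMN_2383305 for the difference itself, ILMN_1660436 and ILMN_1658448 for their Ago2 change, and ILMN_1792455 for both. The gap between the controls, Lin-28B control minus Ago2 control, made up 3.49, 2.77, 2.61, -3.55, -3.60 and -3.41 of these values in the same order, which is the larger part of each. The rest, the direct difference of Ago2 clones minus Lin-28B clones, was 1.75, 1.98, 0.83, -0.24, -0.81 and -0.79. ILMN_1663640 and ILMN_1658448 were near background on several of the arrays, so the size of their differences depends on the offset.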

How the results depend on the processing

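In the Ago2 comparison no probe passed the adjusted threshold in limma under any of 3 other normalizations, 2 other offsets or 2 other filters. The same held with the Lin-28B control in place, pooled controls, robust moderation or a fit of only the 3 Ago2 arrays. The exceptions were 161 calls with the intensity trend and a range of 0 to 51 with 1 clone of either transfection left out. The count of probes at least 2-fold from the control in both Ago2 clones, 347, was 218 with an offset of 100 and 482 with none. It was 388 with the Lin-28B control in place and 36 with the controls pooled. Where 1 clone alone had to pass, it was 713 to 919. The clones were at least 2-fold apart for 212 probes with an offset of 100, against 336. The 1067 calls for the difference of effects became 0 with an offset of 100, with the filter that required all 3 Ago2 arrays above their medians, with the Lin-28B control in place, with pooled controls and with the replicate block, and ranged from 0 to 2887 with 1 clone left out. The last 2 control settings remove the gap between the controls by construction. With the Lin-28B control in place the log2 change turned to 0.24 for ILMN_1658448, -1.71 for ILMN_1663640, 1.41 for ILMN_1720373 and 1.92 for ILMN_2383305, and with the controls pooled to 0.22 for ILMN_2383305. The clone numbers pair no samples by the labels, and the deviations of same-numbered clones correlated at -0.204 across probes. With the replicate block the Ago2 comparison had 0 calls (smallest adjusted p 0.316 in limma). With the numbers crossed, an alternative chosen after seeing the data, there were 0 calls for Ago2 and 1743 for the difference of effects. With 1 clone omitted, only 1 residual degree of freedom is left. A brighter signal over background sets how large a ratio a probe can show.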
